A study of Drosophila melanogaster with 4 samples.

Results

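The respiratory chain and ATP synthase were described from 69 genes, out of 10843 genes that a probe set on the array named singly. They were chosen by name from the probe annotation: the ND- genes of complex I (31 genes), the Sdh genes of complex II (7), the UQCR genes with Cyt-c1 and RFeSP of complex III (6), the COX genes of complex IV (11) and the ATPsyn genes of complex V (14). By role, 51 are subunits, 17 are copies named after a subunit with a final L, L1 or L2, and 1, Sdhaf3, is an assembly factor. A copy here means a gene whose name marks it as a like relative of the subunit. The 69 genes had 71 probe sets, and ND-MNLL and ATPsynC had 2 each.

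The values are transcript levels in total RNA from cultured Drosophila melanogaster embryo cells, read on 1-colour Affymetrix arrays in 4 negative fractions of fluorescence-activated cell sorting, with 2 samples per group, a and b. Both Gad1-negative samples came from cultures whose Gad1-expressing neurons carried the red protein dsRed1, fused directly to 2.1 kb of the promoter of glutamic acid decarboxylase 1. Both Cha-negative samples came from cultures of 3 to 5 days in which cholinergic neurons were marked with GFP. In each case the arrays measured the cells outside the sorted neurons, so both groups are mixed cultures, and no age is labelled for the Gad1 cultures. No label says whether a and b were separate cultures, and p-values then measure only the spread between these samples. As bulk samples they cannot tell fewer cells of a type from less RNA per cell.

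Complexes I to IV pass electrons from fuel molecules to oxygen, and the proton gradient built by complexes I, III and IV drives complex V, which makes ATP. Complex II also belongs to the tricarboxylic acid cycle. Every complex except complex II combines subunits encoded in the nucleus with some encoded in mitochondrial DNA, and the genes here are nuclear. The chain is known for its high level in muscle and for meeting much of the energy demand of neurons. Many fly copies of chain subunits are known for expression mainly in the testis.

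Of the 69 genes, 58 lay above an intensity filter at a mean log2 intensity of 7.05 and were among the 6994 genes tested. The 11 under it were COX7C and 10 copies. A difference is the mean log2 intensity of the Gad1-negative samples less that of the Cha-negative samples (n = 2 each); the value after ± is limma's standard error, SE. Intensities under a floor of 44.9 were set to it. No member passed limma's test at an adjusted p under 0.05, and neither did any of all genes tested (percent called 0). The smallest adjusted p among the members was 0.925 and among all genes 0.783. At an unadjusted p under 0.05 stood 3 members, all higher in Gad1-negative; of all genes tested 4.93% stood there, 2.09% higher and 2.85% lower. The number of arrays limits the precision: the median 95% interval of a member reached 1.45 to either side, a 2.72-fold change. With 2 samples a group, 0.333 is the smallest two-sided p of an exact permutation test.

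Some signs of RNA quality and of other cells differed between the groups, and others overlapped. For the GAPDH controls, the 3' end over the 5' end gave a ratio of 23.9 and 38.04 in Gad1-negative a and b. Cha-negative had 185 in sample b and at least 144 in sample a, whose 5' end lay under the floor. The actin ratio overlapped, at 82.1 and 106 in Gad1-negative and 59.4 and 124 in Cha-negative. The eIF-4a ratio was 230 and 77.1 in Gad1-negative, whereas Cha-negative b had at least 935 and sample a at least 321. For the 7 muscle markers measured, of 12 listed, the summed intensity was 6289.5 and 10508 in Gad1-negative and 4541 and 2174 in Cha-negative, with Act88F under the floor in all samples but Gad1-negative a. Mlc2 was the largest single part of that sum in each sample, at 4097.6 and 7432.4 in Gad1-negative and 2043.9 and 1115.7 in Cha-negative. Without it the other 6 overlapped, at 2192 and 3075 in Gad1-negative and 2497 and 1058 in Cha-negative. Leaving it out was a choice made after the data were seen. Prm had the smallest p of the list and read 377.6 and 797.2 in Gad1-negative and 73.3 and 52.2 in Cha-negative. It differed by 3.15 ± 0.77 (limma unadjusted p = 0.00365, adjusted p = 0.783). Tm2, also without overlap, differed by 0.66. Of the 6 tested muscle markers 5 were positive (47.7% of all genes were). The exception was up, at -0.27, and Mlc1 was highest in Cha-negative a. The 6 markers of dividing precursors summed to 9312 and 5958 in Gad1-negative and 4080 and 4333 in Cha-negative. Of them mira, wor and PCNA were higher in Gad1-negative without overlap (14.7% of all genes were), and pros, dpn and CycE overlapped. Sums over 6 neuron markers were 361 and 1947 in Gad1-negative and 706 and 1270 in Cha-negative; elav and futsch passed the filter, while nSyb, brp, cac and para did not. The 4 glia markers summed to 1051 to 1481 in Gad1-negative and 1352 to 1853 in Cha-negative. Among them repo and alrm were lower in Gad1-negative without overlap (20.1% of all genes were), and moody and Gs2 overlapped. For the 6 haemocyte markers the sums were 3164 to 3672 in Gad1-negative and 1703 to 3841 in Cha-negative, and for 3 fat body markers 1855 to 4627 in Gad1-negative and 1907 to 6744 in Cha-negative. The haemocyte markers overlapped except vkg, which was higher in Gad1-negative. Most of the fat body sum was apolpp, at 1470.9 and 4420.8 in Gad1-negative and 6241.8 and 1688 in Cha-negative. The part of RNA quality and of these cell types in the values below was not tested.

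Over the 58 tested members, Gad1-negative stood slightly above Cha-negative by value, and the sign of the median rested on Gad1-negative b. The median difference was 0.28, against -0.04 for all genes tested, and 37 members had a positive and 21 a negative difference; of all genes tested 47.7% had a positive one. With each array centred on its median the median difference of all genes moved up by 0.25. The members then split into 46 positive and 12 negative. Centring shifts all genes of an array alike, so the members' median relative to all genes stayed at 0.32 by construction. It was 0.15 relative to all genes after quantile normalization and 0.17 after cyclic loess. Groups did not overlap in 13 members higher in Gad1-negative (22.4% of those tested, against 14.7% of all genes) and in 5 lower members (8.62%, against 20.1%); in either direction it was 34.7% of all genes. The 13 are all subunits, and the 5 are 4 copies and Sdhaf3. Without Gad1-negative b it was -0.03, without Cha-negative a 0.02, without Gad1-negative a 0.56 and without Cha-negative b 0.45.

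**Figure D1:**
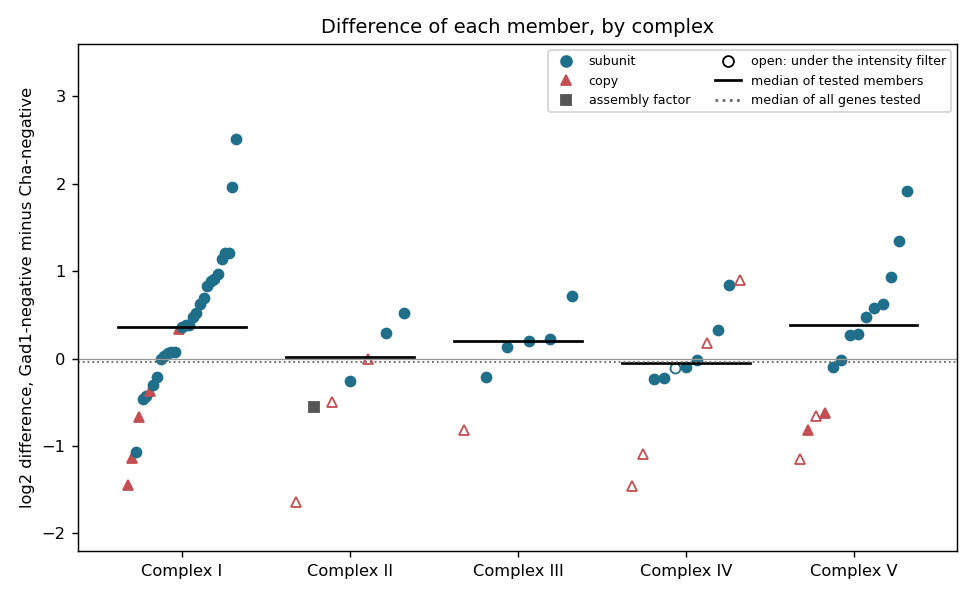
Each point is a member, placed by complex and by its log2 difference (Gad1-negative minus Cha-negative, 2 samples each); triangles are copies, circles subunits, the square Sdhaf3, and open symbols lie under the intensity filter. The median of tested members is 0.37 in complex I and 0.38 in complex V, 0.20 in complex III, 0.02 in complex II and -0.05 in complex IV, and most triangles lie below 0.

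Complex I, which takes electrons from NADH, had 21 positive and 10 negative differences among its 31 genes, all of them tested. Its median was 0.37. Among 26 subunits 20 were positive and 8 did not overlap between groups, all 8 higher in Gad1-negative (ND-20, ND-39, ND-51, ND-75, ND-ASHI, ND-B12, ND-B16.6 and ND-B18). Of all genes tested 47.7% were positive and 14.7% did not overlap and were higher. Without Gad1-negative b the median of the complex was -0.19, so its sign rested on that array.

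ND-51, ND-75 and ND-20, core subunits that carry electrons through the matrix arm, stood a little above in Gad1-negative. Other core subunits, such as ND-23, ND-30 and ND-49, were not among the 69 genes. ND-51, known in mammals as the NADH-binding flavoprotein, read 1235.9 and 1669.2 in Gad1-negative and 738.7 and 1171.4 in Cha-negative (0.63 ± 0.55). ND-75, the largest iron-sulphur subunit in mammals, read 699 and 717.4 in Gad1-negative and 577.8 and 508.3 in Cha-negative (0.39 ± 0.52). ND-20, which in mammals holds the last iron-sulphur centre before ubiquinone, read 3633.8 and 2804.5 in Gad1-negative and 2417.3 and 2536.3 in Cha-negative (0.37 ± 0.53). In all 3 genes both Gad1-negative samples lay above both Cha-negative samples, and the 95% intervals included 0. The interval ran from -0.82 to 1.59 for ND-75 and from -0.87 to 1.60 for ND-20.

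Accessory subunits, which surround that core, held the widest differences of the complex. ND-B18, of the membrane arm in mammals, read 685.7 and 841.4 in Gad1-negative and 306.7 and 123.9 in Cha-negative, a difference of 1.96 ± 0.64 (limma unadjusted p = 0.0165, adjusted p = 0.925). Its groups did not overlap, and with 1 sample left out the difference ran from 1.31 to 2.62. ND-39, an accessory subunit of the matrix arm in mammals, read 761.2 and 1540.8 in Gad1-negative and 455.3 and 530 in Cha-negative (1.14 ± 0.58). ND-ASHI differed by 1.21, ND-B16.6 by 0.97 and ND-B12 by 0.89, again with no overlap.

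Some wide differences of complex I came from a single array. ND-PDSW, of the membrane arm in mammals, read 121.8 and 2462.7 in Gad1-negative and 136.2 and 67.1 in Cha-negative (2.52 ± 1.30). Only Gad1-negative b was high, and without it the difference was 0.35. ND-SGDH read 650 and 1071.7 in Gad1-negative and 114.5 and 1137.5 in Cha-negative (1.21 ± 1.01); here only Cha-negative a was low, and without it the difference was -0.45. ND-B8, an accessory subunit with the most negative difference among the subunits, read 186.1 and 52 in Gad1-negative and 239.8 and 177.5 in Cha-negative (-1.07 ± 0.93), and without Gad1-negative b it differed by -0.15.

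Other accessory subunits were close between the groups. ND-B14 read 745.5 and 1156.7 in Gad1-negative and 799.5 and 1035.1 in Cha-negative, which gave 0.03 (95% interval -1.23 to 1.29). ND-MNLL read 2024.7 and 2766.9 in Gad1-negative and 1882.2 and 2976.4 in Cha-negative, which gave -0.00 (95% interval -1.29 to 1.29). Its dimmer probe set read 1418.6 and 1619.4 in Gad1-negative and 1202.2 and 1307.8 in Cha-negative and differed by 0.27. ND-ACP, the mitochondrial acyl carrier protein, which also serves fatty acid synthesis, differed by 0.07. The remaining 12 subunits lay between -0.46 (ND-B17) and 0.91 (ND-MWFE).

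Complex II, succinate dehydrogenase, showed no common direction. The subunit SdhA was not among the 69 genes. SdhB, the iron-sulphur subunit, read 3044.8 and 5307.3 in Gad1-negative and 2104.8 and 3699 in Cha-negative (0.53 ± 0.61). SdhC and SdhD anchor the enzyme in the membrane. SdhC read 584.2 and 1038.9 in Gad1-negative and 630.7 and 1379.8 in Cha-negative (-0.26 ± 0.62), and SdhD 690.4 and 1590.1 in Gad1-negative and 855.7 and 857.7 in Cha-negative (0.29 ± 0.59). In all 3 subunits the groups overlapped, and Gad1-negative b lay above Gad1-negative a. Sdhaf3, which aids the assembly of the iron-sulphur subunit, read 181.5 and 187.6 in Gad1-negative and 234.3 and 314.6 in Cha-negative (-0.56 ± 0.65), with no overlap. The median of the 4 tested members was 0.02, and it was -0.00 after quantile normalization, -0.45 without Gad1-negative b and -0.32 without Cha-negative a.

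Complex III, which hands electrons to cytochrome c, overlapped between groups in all 5 of its tested members, as 65.3% of all genes tested did. Cyt-c1, its haem subunit facing cytochrome c, read 1024.7 and 2584.2 in Gad1-negative and 835.3 and 1171.6 in Cha-negative (0.72 ± 0.62). RFeSP, the Rieske iron-sulphur protein, was the only tested member with a negative difference; it read 606 and 851.2 in Gad1-negative and 809.5 and 856.8 in Cha-negative (-0.21 ± 0.53). The core subunits UQCR-C1 and UQCR-C2 were not among the 69 genes. UQCR-Q and UQCR-6.4 are small accessory subunits. UQCR-Q read 7458.2 and 7152.4 in Gad1-negative and 5544.2 and 7984.8 in Cha-negative (0.13 ± 0.58), UQCR-6.4 differed by 0.20 and UQCR-14 by 0.22. Both Gad1-negative samples of UQCR-Q lay between the Cha-negative ones. The median of the complex was 0.20, and -0.13 without Cha-negative a.

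Complex IV, cytochrome c oxidase, had 2 positive and 4 negative differences among its tested members, with a median of -0.05, close to that of all genes. All 6 tested members are accessory subunits encoded in the nucleus. COX4 read 3831.7 and 6785.1 in Gad1-negative and 3191.6 and 2553.4 in Cha-negative (0.84 ± 0.58), the only one without overlap. COX5A read 1240.8 and 2262.3 in Gad1-negative and 1423.4 and 1255.2 in Cha-negative (0.33 ± 0.56). COX5B, a zinc-binding subunit, read 1766.9 and 4962.2 in Gad1-negative and 2226.2 and 4463.3 in Cha-negative (-0.09 ± 0.70).

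The smaller subunits of complex IV stood level or slightly lower. COX7A read 7972.6 and 6646.2 in Gad1-negative and 5167.1 and 10502 in Cha-negative (-0.02 ± 0.63), where the Cha-negative samples enclosed the others. COX7B differed by -0.23 ± 0.58 and COX8 by -0.23 ± 0.69. COX8 was high in both b samples, at 2974.5 in Gad1-negative b and 3901.2 in Cha-negative b, and low in both a samples, at 1394.5 in Gad1-negative a and 1454.3 in Cha-negative a. COX7C, also a subunit, lay under the floor except in Cha-negative a, at 22.7 and 10.3 in Gad1-negative and 52.4 and 15.5 in Cha-negative, so no fold is given. The sign of the complex's median depended on the scaling: it was 0.19 with median centring, with 6 of 6 members positive, and -0.16 after quantile normalization. Centring moved all genes alike, to a median of 0.20. Relative to all genes the complex therefore stayed at -0.01, and after quantile normalization it lay at -0.20. Without Cha-negative b the complex's median was 0.45 and without Gad1-negative a 0.49.

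Complex V, ATP synthase, had 8 positive and 4 negative differences, and 2 of its 12 tested members were higher in Gad1-negative at an unadjusted p under 0.05, as were 2.09% of all genes. ATPsynF, a small subunit of the membrane part, read 2639.3 and 2864.2 in Gad1-negative and 1130 and 1040 in Cha-negative, a difference of 1.34 ± 0.51 (limma unadjusted p = 0.0319, adjusted p = 0.925). The samples within each group lay close together, and leaving 1 out kept the difference between 1.28 and 1.40. ATPsynB, of the peripheral stalk that holds the catalytic head still, read 1144.9 and 3893.3 in Gad1-negative and 600.1 and 516.4 in Cha-negative (1.92 ± 0.68, limma unadjusted p = 0.0232, adjusted p = 0.925). Without Gad1-negative b it differed by 1.04 and without Gad1-negative a by 2.81. ATPsynbeta, the catalytic subunit, read 1139.4 and 989.8 in Gad1-negative and 507 and 612.8 in Cha-negative (0.93 ± 0.52). ATPsynD, also of the stalk, read 6262.3 and 5699.4 in Gad1-negative and 3530.6 and 4244 in Cha-negative (0.63 ± 0.55). In these 4 subunits both Gad1-negative samples lay above both Cha-negative samples, as in 14.7% of all genes.

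The other tested ATPsyn subunits overlapped between groups. ATPsyngamma, the shaft of the rotor, read 3284.7 and 3340.8 in Gad1-negative and 2946.2 and 3823.2 in Cha-negative, which gave -0.02 (95% interval -1.27 to 1.23). ATPsyndelta, at the foot of the shaft, read 1972.1 and 5019.3 in Gad1-negative and 3252.5 and 3499.9 in Cha-negative (-0.10 ± 0.63). ATPsynO, which joins the stalk to the head, read 1545.1 and 3841.1 in Gad1-negative and 1201.5 and 2204.5 in Cha-negative (0.58 ± 0.65), and without Gad1-negative b it differed by -0.07. Probe sets disagreed for ATPsynC, the subunit of the proton-driven ring. The brighter read 7643.7 and 3608.5 in Gad1-negative and 3185.2 and 4499.1 in Cha-negative (0.47 ± 0.62), the dimmer 420.2 and 349.7 in Gad1-negative and 605.1 and 381.3 in Cha-negative, a difference of -0.33. The median of the 12 tested members of complex V was 0.38. It ran from 0.18 to 0.64 with 1 sample left out, and of the 5 complexes it alone kept its sign under every normalization and with every sample left out.

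**Figure D2:**
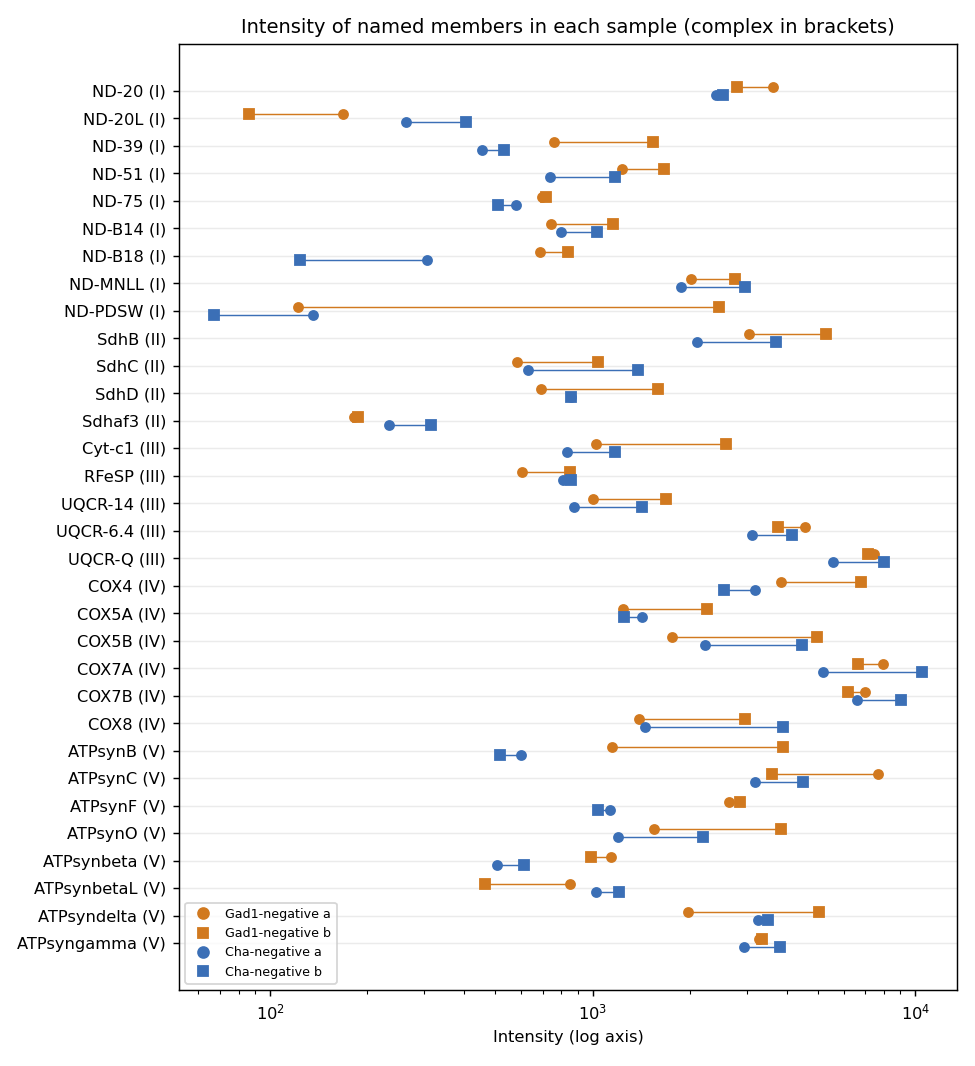
The horizontal log axis is intensity and each row is a named member with its complex in brackets; Gad1-negative samples are orange and Cha-negative samples blue, circles are a and squares b, and a line joins the samples of a group. ATPsynF, ATPsynB, ND-B18 and ND-39 show orange entirely to the right of blue, ND-20L and ATPsynbetaL entirely to the left, and in ND-PDSW only Gad1-negative b stands apart.

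Most copies named after a subunit had a negative difference, and most subunits a positive one. Of the 17 copies 13 had a negative and 3 a positive difference, and SdhCL lay at the floor in all samples. Of the 51 subunits 15 were negative and 36 positive. Of all genes tested 47.7% were positive, and 40.8% of those in the dimmest of 4 intensity classes. Some dim copies count as negative through Cha-negative a alone. Without it COX4L and ATPsynCF6L differed by 0, UQCR-14L by 0.02 and COX6AL2 by -0.14. This division of the members was made after their values were seen and was given no test. The 7 copies above the filter had a median of -0.67 and the 50 tested subunits one of 0.35. With any 1 sample left out the medians ran from -1.26 to -0.34 for the copies and from 0.05 to 0.75 for the subunits, and in all 4 cases the median of the copies lay below that of the subunits.

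Among copies above the filter, ND-20L read 167.9 and 85.8 in Gad1-negative and 263.4 and 404.5 in Cha-negative (-1.44 ± 0.74, limma adjusted p = 0.925), whereas ND-20 differed by 0.37. ND-51L1 read 201.6 and 99.2 in Gad1-negative and 400.7 and 242.7 in Cha-negative (-1.14 ± 0.74), whereas ND-51 differed by 0.63. ATPsynbetaL read 852.1 and 464.2 in Gad1-negative and 1021.7 and 1208.3 in Cha-negative (-0.82 ± 0.56), whereas ATPsynbeta differed by 0.93. Groups did not overlap in these 3 copies and in ND-24L, which differed by -0.67; 20.1% of all genes were lower without overlap. In ND-51L2, ATPsynepsilonL and ND-B14.5AL they did, at -0.37, -0.62 and 0.34.

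The 10 copies under the filter were dim, and many of their readings lay under the floor. SdhAL read 20.4 and 68.7 in Gad1-negative and 150.8 and 198 in Cha-negative, and SdhBL 92.3 and 69 in Gad1-negative and 133.9 and 93.9 in Cha-negative. COX4L lay under the floor in both Gad1-negative samples, at 13.4 and 15.9, and read 339.8 and 44.9 in Cha-negative. Both Gad1-negative samples were also under the floor for ATPsynCF6L, at 21 and 26.9 against 221.4 and 42.1 in Cha-negative. In both copies Cha-negative b lay at or under the floor too, so no fold is given. Without Cha-negative a their floored differences were 0. COX6AL2 read 10.8 and 6.2 in Gad1-negative and 185.3 and 49.5 in Cha-negative, at least 2.13-fold lower in Gad1-negative. Without Cha-negative a it differed by -0.14. Another probe set, shared by COX6AL2 and Ir75d and left out of the members, differed by -0.08. It read 117.4 and 13.8 in Gad1-negative and 131.9 and 33.8 in Cha-negative. COX7AL was above the floor in Gad1-negative a, at 160.7, and at 9.2 in Gad1-negative b, against 46.5 and 21.6 in Cha-negative. COX5BL read 120.1 and 13.9 in Gad1-negative and 93.4 and 40.2 in Cha-negative, UQCR-14L 46 and 9.6 in Gad1-negative and 142.2 and 20.4 in Cha-negative, and ATPsynGL 194.7 and 53.4 in Gad1-negative and 184.4 and 140 in Cha-negative. Whether a probe set of a copy also takes up transcripts of its subunit was not tested.

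**Figure D3:**
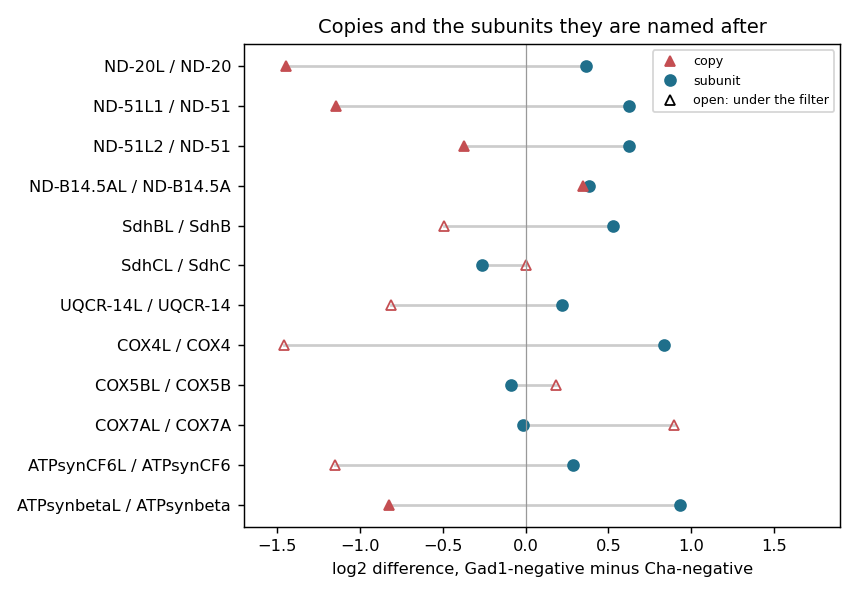
Each row is one of the 12 copies for which a subunit of the same base name is among the members. Subunits that carry other names are not shown. The copy (triangle, open where under the filter) and the subunit (circle) are placed by log2 difference, Gad1-negative minus Cha-negative. In 9 rows the triangle lies left of the circle, and SdhCL, COX5BL and COX7AL are the others. The open triangles of UQCR-14L, COX4L and ATPsynCF6L lie left of 0 through Cha-negative a alone.

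Copies and subunits also differed in intensity. Genes tested were placed in 4 classes of near equal size by mean log2 intensity, and the median difference of all genes was -0.24 in the dimmest class, -0.13 and 0.01 in the next and 0.08 in the brightest. Of the 50 tested subunits, 32 lay in the brightest class, with a median of 0.28 and 22 positive, and 13 in the class below it, with a median of 0.48 and 11 positive. The 3 subunits of the dimmest class were ND-18 at 0.70, ND-B8 at -1.07 and ND-PDSW at 2.52, the last high in Gad1-negative b alone. The 2 of the next class were ND-B17 at -0.46 and ND-B18 at 1.96. Genes this few and this scattered give no median to set beside that of all genes. Of the 7 tested copies 3 lay in the dimmest class, with a median of -1.14, and 1, ATPsynepsilonL, in the brightest, at -0.62. The part of intensity in the values of copies and subunits was not tested.

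**Figure D4:**
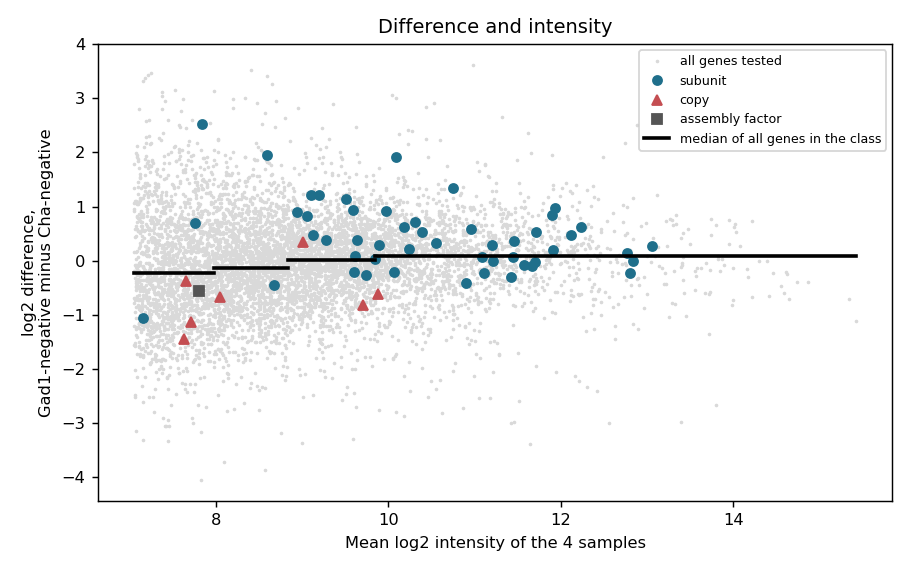
Grey points are the 6994 genes tested, by mean log2 intensity of the 4 samples and log2 difference (Gad1-negative minus Cha-negative); coloured symbols are tested members and black lines the median of all genes in each of 4 intensity classes. The lines climb from -0.24 to 0.08, the circles of the brightest class have a median of 0.28, and 6 of 7 triangles lie below 0.

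The samples of one group also differed from each other in these genes. Gad1-negative b lay above Gad1-negative a in 39 of 58 tested members (67.2%, against 44.2% of all genes tested), with a median gap of 0.53 where all genes had -0.16. Cha-negative b lay above Cha-negative a in 45 of 58 (77.6%, against 49.6%), with a median gap of 0.40 where all genes had -0.00. Gad1-negative b was the highest of the 4 samples in 29 of 58 members (for all genes, 24.4%), and Cha-negative a the lowest in 25 (43.1%, against 26.1%). A gap of over 1 between the samples of a group, a 2-fold change, was found in 23 of 58 members for Gad1-negative (39.7%, against 36.1% of all genes) and in 11 for Cha-negative (19.0%, against 29.5%). Between groups, where means of 2 samples are compared, 48 of 58 differed by less than 1 (82.8%, against 79.2%). Of the others 7 were over 1 higher in Gad1-negative (8.85% of all genes were) and 3 over 1 lower (12.0% of all genes were).

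These gaps varied by complex and by role. In complex I the median gap was 0.63 in Gad1-negative and 0.37 in Cha-negative, and in complex IV 0.85 in Gad1-negative and 0.73 in Cha-negative. In complex V it was -0.06 in Gad1-negative and 0.25 in Cha-negative. All 7 tested copies lay lower in Gad1-negative b than in Gad1-negative a, and 38 of 50 tested subunits higher. Nothing in the labels ties a sample lettered a or b to the same letter in the other group. Across the 58 members, Pearson's r of log2 intensity ran from 0.750 (Gad1-negative b with Cha-negative b) to 0.909 (Gad1-negative a with Cha-negative a), with 0.815 within Gad1-negative and 0.898 within Cha-negative. These correlations are across genes, which are not independent replicates.

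**Figure D5:**
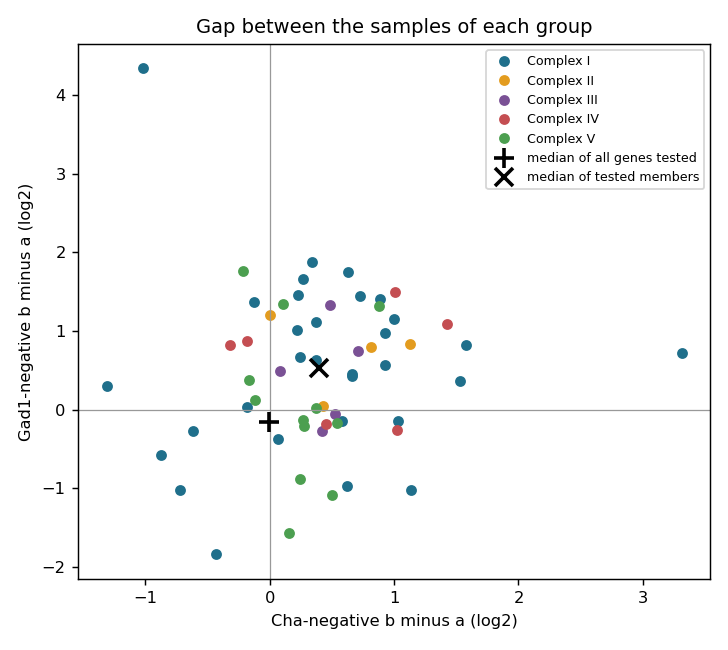
Each point is a tested member, coloured by complex, with the gap b minus a of the Gad1-negative samples on the vertical and of the Cha-negative samples on the horizontal axis, both in log2 units. The median of the members (cross) lies at 0.53 for Gad1-negative and 0.40 for Cha-negative, up and right of the median of all genes tested (plus sign) at -0.16 and -0.00.

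No gene that supplies or builds the chain passed limma's test either. Of 5 tested subunits that carry other names, blw, the alpha subunit of the catalytic head of ATP synthase, read 5888.9 and 10992.6 in Gad1-negative and 2945.8 and 4326.3 in Cha-negative (1.17 ± 0.61), with no overlap. The complex IV subunits cype and levy differed by -0.12 and 0.02, sun of ATP synthase by -0.10 and ox of complex III by -0.33. The list of 12 tested genes for the tricarboxylic acid cycle and its entry steps also held PCB, Idh and Mdh1, which are not enzymes of the cycle itself. Of the 12 genes 11 were positive (47.7% of all genes were), with a median of 0.43. The smallest p was that of PCB, pyruvate carboxylase, which refills the cycle. It read 2253.6 and 2295.8 in Gad1-negative and 1275.2 and 435 in Cha-negative (1.61 ± 0.64, limma unadjusted p = 0.0380, adjusted p = 0.925). Without Cha-negative b it differed by 0.83 and without Cha-negative a by 2.39. Idh3b, a subunit of isocitrate dehydrogenase, differed by 1.25, mAcon1, the mitochondrial aconitase, by 1.08 and muc, of the pyruvate dehydrogenase complex, by 0.96. That list too depended on single arrays: 6 of 12 were positive without Cha-negative a and 7 of 12 without Gad1-negative b, with medians of 0.07 without Cha-negative a and 0.18 without Gad1-negative b.

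Carriers, assembly factors and regulators were measured for fewer genes. Of 6 tested carriers 5 were positive, against 47.7% of all genes. The ADP/ATP exchanger of the inner membrane, sesB, read 5304.5 and 6165.8 in Gad1-negative and 3611.7 and 2882.3 in Cha-negative (0.83 ± 0.55). Mpcp2, the phosphate carrier, differed by 0.43, and Bmcp by -0.58. Of 8 assembly factors 4 were positive and 4 negative. Sirup, an assembly factor of complex II, read 4700.4 and 11881 in Gad1-negative and 3988.9 and 940.2 in Cha-negative (1.95 ± 0.83, limma unadjusted p = 0.0477, adjusted p = 0.925). Without Cha-negative b it differed by 0.91 and without Cha-negative a by 2.99. Cox10, which makes the haem of complex IV, differed by 0.78, and Scox, a copper chaperone of complex IV, by 0.56. The groups overlapped in both, and without Cha-negative a Cox10 differed by 0.07 and Scox by -0.54. Among 7 regulators and factors of the mitochondrial genome 6 were positive (47.7% of all genes were), with a median of 0.24. Without Gad1-negative b 6 of 7 were positive. Without Gad1-negative a, without Cha-negative a or without Cha-negative b 4 of 7 were. The median ran from 0.06 to 0.58 with 1 sample left out. TFAM, which packages mitochondrial DNA, read 1380.4 and 1190.6 in Gad1-negative and 452.1 and 804.7 in Cha-negative (1.09 ± 0.55). The fly relative of a regulator of chain genes in mammals, ewg, differed by 1.02 and Ets97D by -0.35. For ewg the groups overlapped, and without Gad1-negative a it differed by 0.20. The 2 genes of electron entry, Dhod and wal, differed by 0.47 and 0.05. The 13 mitochondrially encoded subunits and cytochrome c itself were not analysed here.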

How the data were processed

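The deposited values are intensities on a linear scale, 1 per probe set of a 1-colour Affymetrix array, in 4 samples. The 2%-trimmed mean is 500.1 on all arrays, as after scaling to one target by the authors; which program made the values is not given in the sources used here. Depth does not apply. Of 14010 probe sets, 44 were array controls, 12442 named 1 gene, 327 several and 1197 none; the annotation is that of the array platform, with symbols updated by gene ID. Each gene was given its brightest probe set. Coordinates are left out, since the probes come with no genome build.

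Before log2, the 20th percentile (44.9) was used as a floor. The 6994 genes whose mean reached the 40th percentile over probe sets were tested with limma 3.58.1 in R 4.3.3 (lmFit, eBayes with trend, two-sided), with Benjamini-Hochberg adjustment over all of them and a threshold of 0.05. The fit was tested on simulated data. Python 3.11.15 was used for tables and figures.

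Of 73 probe sets whose annotation matches the name rule, 2 name a further gene (ATPsynG with beat-Vb, COX6AL2 with Ir75d) and were left out; ND-13B and COX6B also share theirs with other genes. The members and lists were chosen with earlier results of these data known. Named are, per complex, the 4 members with the smallest p and the 2 with the smallest difference. Core subunits among the members, members with 2 probe sets and dim ones are also named. Up to 3 genes by p are named from each list of the pathway and from the muscle markers. The other marker lists are given as sums, with no gene chosen by p. Other members described (such as ND-SGDH, ND-B8, ND-51L1 and ATPsynD), mAcon1, sun, levy and other single cell markers were picked after their values were seen. stl, listed as a subunit by mistake, was left out of the counts. The alternatives were other normalizations, floors, filters, probe set summaries and eBayes settings, the replicate letter as a block, other thresholds and leaving out each sample.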

Additional observations from a re-analysis of the deposited data

How the results depend on the processing

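No member and none of all genes tested passed an adjusted p under 0.05 (or under 0.10) in any normalization, floor, filter, probe set summary, eBayes setting or with a sample left out; at an unadjusted p under 0.05 limma gave 3 of 58 members and 345 of 6994 genes. With the replicate letter as a block, 4 members and 602 genes stood at limma's unadjusted p under 0.05 and 0 passed adjustment. The b minus a gaps of the groups correlated at r = 0.25 over all genes and 0.04 over the members. The labels pair no samples, and whether samples of one letter share more than the letter is not known. With 1 sample left out the median difference ran from -0.03 to 0.56 for all members, from -0.19 to 0.76 for complex I, from -0.45 to 0.52 for complex II, from -0.13 to 0.41 for complex III, from -0.49 to 0.49 for complex IV and from 0.18 to 0.64 for complex V; the lone sample of a group was then assumed to vary like the other group. With no intensity filter, 69 members had a median of 0.13. Between 0 and 13 of the tested members changed sign under a setting, 9 of them with median centring and 13 without Gad1-negative b. The subunit and copy medians were added after the data were seen; copies lay between -0.43 and -0.67 and subunits between 0.27 and 0.59 over the settings that keep all samples. Signal near background limits COX7C and the 10 dim copies.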
